A study of Rattus norvegicus with 11 samples.

Results

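The genes of cholesterol synthesis, sterol sensing, uptake and efflux were followed in the renal cortex of rats with type 1 diabetes and gastric bypass surgery. The 31 genes were a named list, matched to array probes by RefSeq identifier. Where several probes of a gene were above background, the brightest stood for it. All 31 had a probe well above background on all 11 arrays, among 25805 genes tested. Of these 14358 were named genes, and each probe without a gene symbol was counted as a gene of its own. Each array had been hybridised with Cy3-labelled RNA from one SD rat cortex sample, and diabetes had been induced with STZ (streptozotocin, which kills the beta cells of the pancreas). Diabetic (DM) and control rats had sham surgery or RYGB (Roux-en-Y gastric bypass, which joins a small stomach pouch to the lower small bowel) 4 weeks later, and cortex was taken after a further 4 weeks. The groups were DM+RYGB (2 arrays), DM+Sham (3), Control+RYGB (3) and Control+Sham (3). The labels give no age, sex, diet or drug dose, and do not say whether the replicates of a group came from separate animals, so p-values measure only the spread between these samples, which may be technical. The DM groups are thus a model of insulin deficiency.

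Cells make cholesterol from acetyl-CoA, first through mevalonate to farnesyl diphosphate, and then through squalene and lanosterol to the sterol ring. When membranes of the endoplasmic reticulum are low in sterol, the escort protein Scap carries the transcription factor made from Srebf2 to the Golgi, where it is cut and released to switch on the enzymes of synthesis. Insig1 and Insig2 hold Scap back when sterols are plentiful. The liver X receptors, made from Nr1h2 and Nr1h3, respond to oxidised sterols and switch on the efflux pumps Abca1 and Abcg1, and Mylip, a ubiquitin ligase that marks lipoprotein receptors for degradation. In the kidney, tubule cells both make cholesterol and take it up, and lipid build-up in diabetic kidneys is a known feature of the disease.

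Levels are on a log2 scale on which 0 is as bright as the 75th percentile of the array. Changes are differences of these levels with their standard error (SE) from limma, and adjusted p-values are by Benjamini and Hochberg over all 25805 genes. A gene was called only if its adjusted p was under 0.05 in the same direction under each of 3 scalings (75th percentile, median and quantile), because the scalings disagreed after surgery. The median change of all genes was 0.57 in DM+RYGB against DM+Sham with the 75th percentile, and -0.03 with the median and -0.06 with quantile scaling.

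The 75th percentile of the signal lay between 1540.6 and 4454 intensity units, and 77.7% to 93.5% of probes were well above background. In DM+Sham, arrays 2 and 3 differed by no more than repeated spots of one array do, as did arrays 2 and 3 of Control+RYGB, and each pair was counted as 1 sample, which left 9 samples. The 2 DM+RYGB arrays differed more from each other (a spread of 0.41) than any other arrays of 1 group (0.026 to 0.26). The limma fit used 1 estimate of spread per gene for all 4 groups. SEs and p-values of comparisons with DM+RYGB thus draw on the less variable groups too, and may be too small. All 10 proximal tubule markers were well above background on all 11 arrays, with summed levels of 139.6 to 249.4 times the 75th percentile in DM+RYGB, 181.3 to 236.8 in DM+Sham, 307.3 to 415 in Control+RYGB and 149.9 to 220.8 in Control+Sham. Heart muscle markers stood apart on 1 array: their sum over 8 genes was 273.4 on DM+RYGB 2 and 0.95 on DM+RYGB 1, against 0.57 to 0.59 in DM+Sham, 0.47 to 0.80 in Control+RYGB and 0.40 to 0.43 in Control+Sham. The sum over 7 urothelium markers was 0.43 to 0.56 in DM+RYGB, 0.22 to 0.23 in DM+Sham and 0.19 to 0.25 in Control+RYGB, against 2.17 to 2.36 in Control+Sham. In tissue of this kind, fewer cells of a type and less RNA per cell cannot be told apart.

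**Figure D1:**
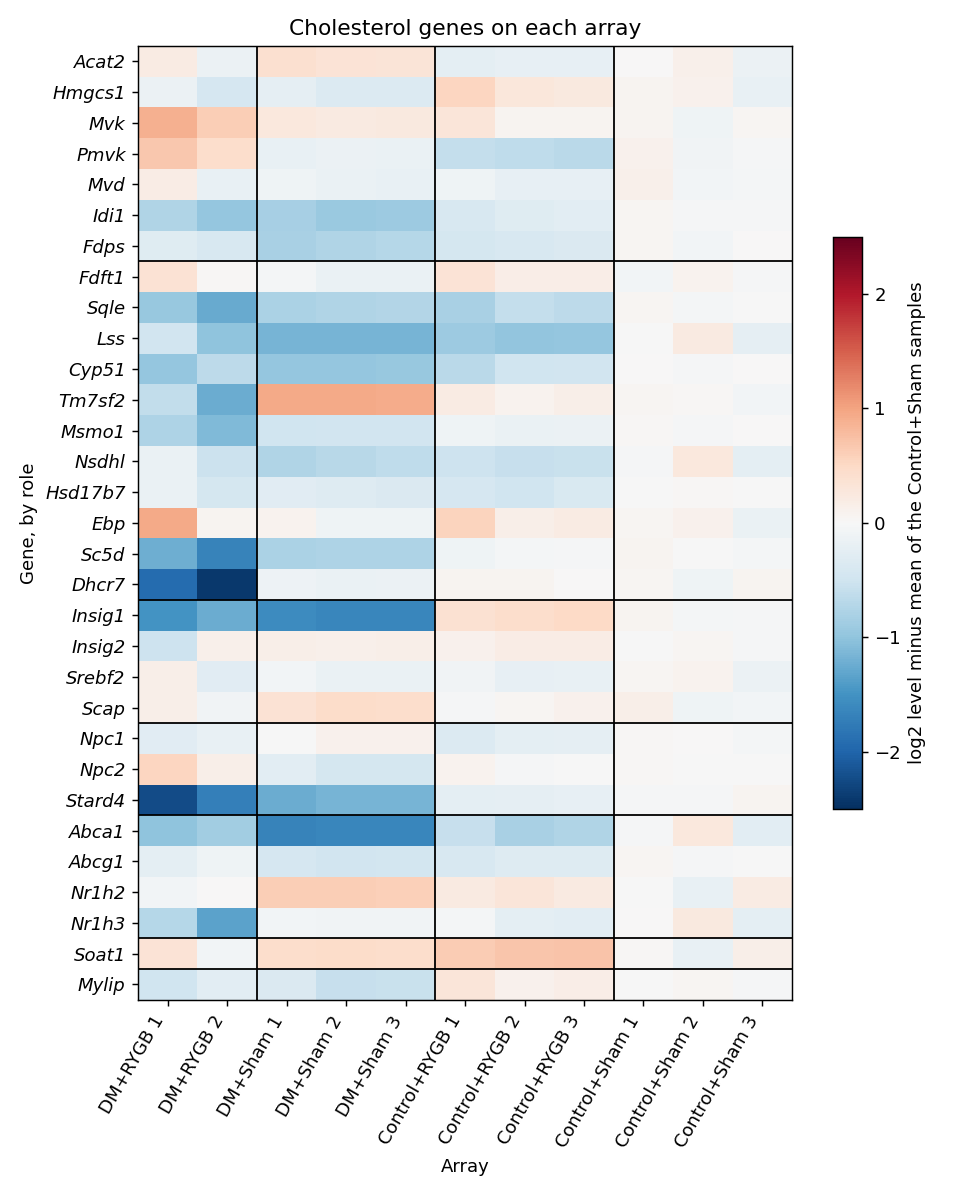
Level of each of the 31 genes (rows, separated by role) on each of the 11 arrays (columns), as the difference in log2 level from the mean of the Control+Sham samples; blue is lower and red is higher. Insig1 and Stard4 are blue on all arrays of both diabetic groups, Dhcr7 is dark blue on the DM+RYGB arrays, and Tm7sf2 is red on the DM+Sham arrays.

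The first comparison asked how diabetes alone altered these genes. In DM+Sham against Control+Sham cortex, 11 of the 31 genes fell, where 6.42% of all genes did, and 2 rose, where 5.93% of all genes did. The median change of the 31 genes was -0.29, beside 0.03 for all genes. Of the 18 enzymes of synthesis 8 fell and 1 rose: 2 of the 7 up to farnesyl diphosphate fell, and of the 11 that follow 6 fell and 1 rose. Insig1, the sterol carrier Stard4 and the efflux pump Abca1 fell too. Every DM+Sham array lay below every Control+Sham array for 19 of the 31 genes, beside 24.1% of all genes, and above for 7, beside 29.7%.

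Of the early enzymes, Idi1 (isopentenyl diphosphate isomerase) had levels of -0.10, -0.19 and -0.18 on the DM+Sham arrays and 0.77, 0.71 and 0.71 on the Control+Sham arrays. Fdps, which makes farnesyl diphosphate, had 0.80, 0.85 and 0.88 in DM+Sham and 1.65, 1.53 and 1.62 in Control+Sham. Every DM+Sham array lay below every Control+Sham array for both genes. Idi1 fell by 0.87 ± 0.11 (adjusted p = 0.0032, limma) and Fdps by 0.77 ± 0.10 (adjusted p = 0.0038), and a second Fdps probe differed by -0.87. The other 5 early enzymes were not called, with changes of 0.37 for Acat2, -0.29 for Hmgcs1, 0.25 for Mvk, -0.18 for Pmvk and -0.14 for Mvd.

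Among the later enzymes, Cyp51 (lanosterol demethylase) had levels of -2.19, -2.18 and -2.17 in DM+Sham and -1.20, -1.24 and -1.21 in Control+Sham. Lss (lanosterol synthase, which closes the sterol ring) had -0.53, -0.52 and -0.52 in DM+Sham and 0.64, 0.86 and 0.42 in Control+Sham. Neither gene's groups overlapped, and the Control+Sham arrays varied more for Lss. Cyp51 fell by 0.96 ± 0.13 (adjusted p = 0.0042) and Lss by 1.17 ± 0.19 (adjusted p = 0.0096), a 2.25-fold lower signal. Sqle (squalene epoxidase) and Sc5d (sterol C5-desaturase) fell by 0.76 and 0.78, calls kept under 20 and 19 of 26 alternatives. These 26 include each of the 3 scalings alone, which every call passes by construction. They also include leaving out 1 array of an averaged pair, which removes no sample. Such counts therefore overstate how stable a call is. Nsdhl and Msmo1 (both of which act in removing the methyl groups at C4) fell by 0.71 and 0.49, calls kept under 15 and 12. The exception was Tm7sf2, a sterol C14-reductase, with 0.76, 0.76 and 0.75 in DM+Sham and -0.14, -0.16 and -0.26 in Control+Sham. It rose by 0.94 ± 0.18 (adjusted p = 0.017), with all DM+Sham arrays above all Control+Sham arrays, a call kept under 17 of 26 alternatives. Fdft1, Hsd17b7, Ebp and Dhcr7 were not called and changed by -0.32 to -0.01.

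Insig1 showed the smallest adjusted p of the 31 genes in this comparison. Its levels were 0.02 and 0.28 on the DM+RYGB arrays, -0.05, -0.10 and -0.10 in DM+Sham, 1.90, 1.97 and 2.02 in Control+RYGB, and 1.60, 1.47 and 1.5 in Control+Sham. The 5 arrays of diabetic rats thus lay below all 6 arrays of control rats, with 0.28 the highest value among diabetic rats and 1.47 the lowest among control rats. In DM+Sham against Control+Sham it fell by 1.60 ± 0.12, a 3.03-fold lower signal (adjusted p = 5e-04). The other genes of sterol sensing were not called: Srebf2, which encodes the transcription factor, changed by -0.11 ± 0.15, Insig2 by 0.15 ± 0.19 and Scap by 0.41 ± 0.13.

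Stard4, a carrier that moves cholesterol between membranes, had levels of -1.29 and -0.77 in DM+RYGB, -0.30, -0.22 and -0.22 in DM+Sham, 0.71, 0.73 and 0.75 in Control+RYGB, and 0.92, 0.91 and 1.01 in Control+Sham. Again all arrays of diabetic rats lay below all arrays of control rats. It fell by 1.21 ± 0.16 in DM+Sham against Control+Sham (adjusted p = 0.0044), and its second probe differed by -1.49. The lysosomal cholesterol exporters Npc1 and Npc2 were not called, with changes of 0.04 ± 0.10 and -0.35 ± 0.14.

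In efflux, Abca1 had levels of -3.10, -3.06 and -3.07 in DM+Sham and -1.46, -1.16 and -1.69 in Control+Sham. The groups did not overlap, and Abca1 fell by 1.65 ± 0.17, a 3.13-fold lower signal (adjusted p = 0.0018). Nr1h2, which encodes liver X receptor beta, rose by 0.61 ± 0.13 (adjusted p = 0.024), with levels of -0.67, -0.66 and -0.68 in DM+Sham and -1.29, -1.47 and -1.08 in Control+Sham, and this call was kept under 16 of 26 alternatives. Nr1h3, for liver X receptor alpha, changed by -0.08 ± 0.22, and Abcg1 by -0.44 ± 0.10, which did not pass under all 3 scalings. Soat1, which esterifies cholesterol for storage, changed by 0.45 ± 0.16 (adjusted p = 0.1), and Mylip by -0.46 ± 0.12 without passing under all 3 scalings.

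Promoter sequences are shown for the genes that fell in DM+Sham, to set the letters before their starts beside one another. RefSeq promoter windows (GRCr8, from 250 bases before to 50 bases after the start) were found for 26 of the 31 genes, not for Pmvk, Fdft1, Sqle, Stard4 and Abcg1. Both strands were searched for CACNCCAC, the core of the classical sterol regulatory element, the CCAAT box, and the E-box CACGTG. In the stretches below, written 5′ to 3′ on the strand of the gene up to the base before the start, capitals mark CCAAT (or ATTGG, the same box on the other strand), CACNCCAC and CACGTG. All 9 genes that fell in DM+Sham and have a window are given. On the minus strand lie Idi1 (chr17:66547525-66547774), Fdps (chr2:176804817-176805066), Lss (chr20:12118231-12118480), Sc5d (chr8:51538278-51538527), Insig1 (chr4:8057770-8058019) and Abca1 (chr5:72596474-72596723). On the plus strand lie Cyp51 (chr4:30991443-30991692), Msmo1 (chr16:29746863-29747112) and Nsdhl (chrX:155817110-155817359).
Idi1: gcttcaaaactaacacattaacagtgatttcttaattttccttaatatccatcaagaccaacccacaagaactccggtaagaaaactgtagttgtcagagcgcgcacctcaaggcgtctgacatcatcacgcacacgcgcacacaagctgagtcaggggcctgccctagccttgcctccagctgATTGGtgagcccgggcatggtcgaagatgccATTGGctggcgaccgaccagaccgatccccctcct
Fdps: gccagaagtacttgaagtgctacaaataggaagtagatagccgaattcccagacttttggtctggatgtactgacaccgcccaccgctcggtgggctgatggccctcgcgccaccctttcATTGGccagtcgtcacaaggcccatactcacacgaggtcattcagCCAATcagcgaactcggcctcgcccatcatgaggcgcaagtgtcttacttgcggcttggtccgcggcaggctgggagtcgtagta
Lss: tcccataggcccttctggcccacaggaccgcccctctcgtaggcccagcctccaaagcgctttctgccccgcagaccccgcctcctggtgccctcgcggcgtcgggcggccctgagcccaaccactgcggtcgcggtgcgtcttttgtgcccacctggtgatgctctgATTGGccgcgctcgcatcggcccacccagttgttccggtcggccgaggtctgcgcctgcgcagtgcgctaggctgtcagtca
Cyp51: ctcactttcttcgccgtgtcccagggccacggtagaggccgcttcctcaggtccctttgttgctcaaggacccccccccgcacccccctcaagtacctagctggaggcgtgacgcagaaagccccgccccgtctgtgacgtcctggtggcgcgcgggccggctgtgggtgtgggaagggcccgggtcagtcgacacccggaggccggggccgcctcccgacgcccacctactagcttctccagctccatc
Msmo1: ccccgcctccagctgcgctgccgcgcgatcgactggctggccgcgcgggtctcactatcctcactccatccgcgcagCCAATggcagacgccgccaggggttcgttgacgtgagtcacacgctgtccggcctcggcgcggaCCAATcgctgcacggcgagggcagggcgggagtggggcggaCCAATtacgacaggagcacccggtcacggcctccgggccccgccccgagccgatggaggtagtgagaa
Nsdhl: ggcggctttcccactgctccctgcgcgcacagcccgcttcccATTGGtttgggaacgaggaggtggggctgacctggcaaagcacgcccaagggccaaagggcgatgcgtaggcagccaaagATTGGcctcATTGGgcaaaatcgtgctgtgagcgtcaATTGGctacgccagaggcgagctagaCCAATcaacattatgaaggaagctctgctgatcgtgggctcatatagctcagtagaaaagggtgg
Sc5d: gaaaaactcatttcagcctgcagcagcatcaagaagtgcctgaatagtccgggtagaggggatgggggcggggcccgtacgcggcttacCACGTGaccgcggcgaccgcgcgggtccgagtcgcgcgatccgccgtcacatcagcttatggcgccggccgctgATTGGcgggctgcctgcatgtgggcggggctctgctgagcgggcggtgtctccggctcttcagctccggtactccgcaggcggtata
Insig1: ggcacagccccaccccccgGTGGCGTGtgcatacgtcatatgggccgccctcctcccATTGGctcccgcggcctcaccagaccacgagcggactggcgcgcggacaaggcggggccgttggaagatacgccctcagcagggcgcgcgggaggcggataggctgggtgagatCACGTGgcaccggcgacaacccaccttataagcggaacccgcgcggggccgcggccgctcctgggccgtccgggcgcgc
Abca1: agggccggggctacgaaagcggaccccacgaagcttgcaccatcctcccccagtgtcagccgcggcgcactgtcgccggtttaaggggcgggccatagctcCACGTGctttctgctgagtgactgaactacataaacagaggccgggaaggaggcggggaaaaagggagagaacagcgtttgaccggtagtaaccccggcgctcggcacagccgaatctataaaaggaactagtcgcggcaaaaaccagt
The core of the sterol regulatory element was in 3 of the 26 windows and in 5.8% of all 33469 promoters. It was in 1 of the 9 genes that fell in DM+Sham (Insig1) and in 2 of the 17 others (Acat2 and Ebp). A CCAAT box was in 18 of 26 windows, beside 37.5% of all promoters: 7 of the 9 genes that fell in DM+Sham and have a window held one, as did 11 of the 17 others, and Cyp51 and Abca1 held none. Its first base lay 193 bases before the start in Insig1, 82 in Lss, 87 in Sc5d, 66 and 35 in Idi1, 130 and 85 in Fdps, and 173, 109 and 68 in Msmo1, while Nsdhl held 5. The E-box was in 4 of 26 windows, 3 of the 9 that fell and 1 of the 17 others (Scap), and in 6.42% of all promoters. It began 79 bases before the start in Insig1, 149 in Abca1 and 161 in Sc5d. A match in these windows is a description of the sequence and not a measured binding site.

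Of the 57 other sterol genes measured, 5 fell and 6 rose in DM+Sham against Control+Sham, beside 6.42% and 5.93% of all genes. Apoc1, an apolipoprotein, fell by 1.54 ± 0.13 (adjusted p = 0.00092), and Abcg4, a sterol pump related to Abcg1, by 1.15 ± 0.16 (adjusted p = 0.0049). Rxrb, a partner of the liver X receptors, rose by 0.69 ± 0.10, and Lpcat3, a phospholipid-remodelling enzyme, fell by 0.70 ± 0.11. Of the 8 measured genes in a list of receptor partners, receptor targets and other efflux genes, 4 fell and 1 rose, beside 6.42% and 5.93% of all genes.

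Urothelium markers also fell in this comparison, 6 of the 7 measured, with changes of -2.81 for Upk1b and -4.27 for Upk3a. Of the other cell type lists, 3 of 6 intercalated cell markers rose, 2 of 7 hepatocyte markers fell and 1 rose, and none of the rest had more than 2 called. The part of these markers in the result was not tested. Insig1 and Stard4 fell by 1.80 and 1.75 in DM+RYGB against Control+RYGB, where the urothelium sums were 0.43 to 0.56 in DM+RYGB and 0.19 to 0.25 in Control+RYGB. Within the 2 scan days that held both groups, Insig1 differed by -1.52 and -1.60, Abca1 by -1.94 and -1.37, Stard4 by -1.21 and -1.23, Idi1 by -0.82 and -0.89 and Tm7sf2 by 0.92 and 1.02. The direction of all 13 calls was the same under every alternative tried, but their number was not. With normexp background correction no gene was called lower in limma (7 of 31 at an unadjusted p under 0.05), beside 0.267% of all genes. None was called lower in limma with scan day as a block (11 of 31 at an unadjusted p under 0.05, on 2 residual degrees of freedom), beside 0.395%. Left-out samples also lowered the number of falls, to 7 without Control+Sham 1, beside 2.93% of all genes, and further without DM+Sham 1 or without DM+Sham 2 and 3. The rises of Tm7sf2 and Nr1h2 were both lost with normexp correction, with scan day or the replicate number as a block, and without Control+Sham 1, Control+Sham 2, DM+Sham 1, DM+Sham 2 and 3, Control+RYGB 1, or Control+RYGB 2 and 3.

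**Figure D2:**
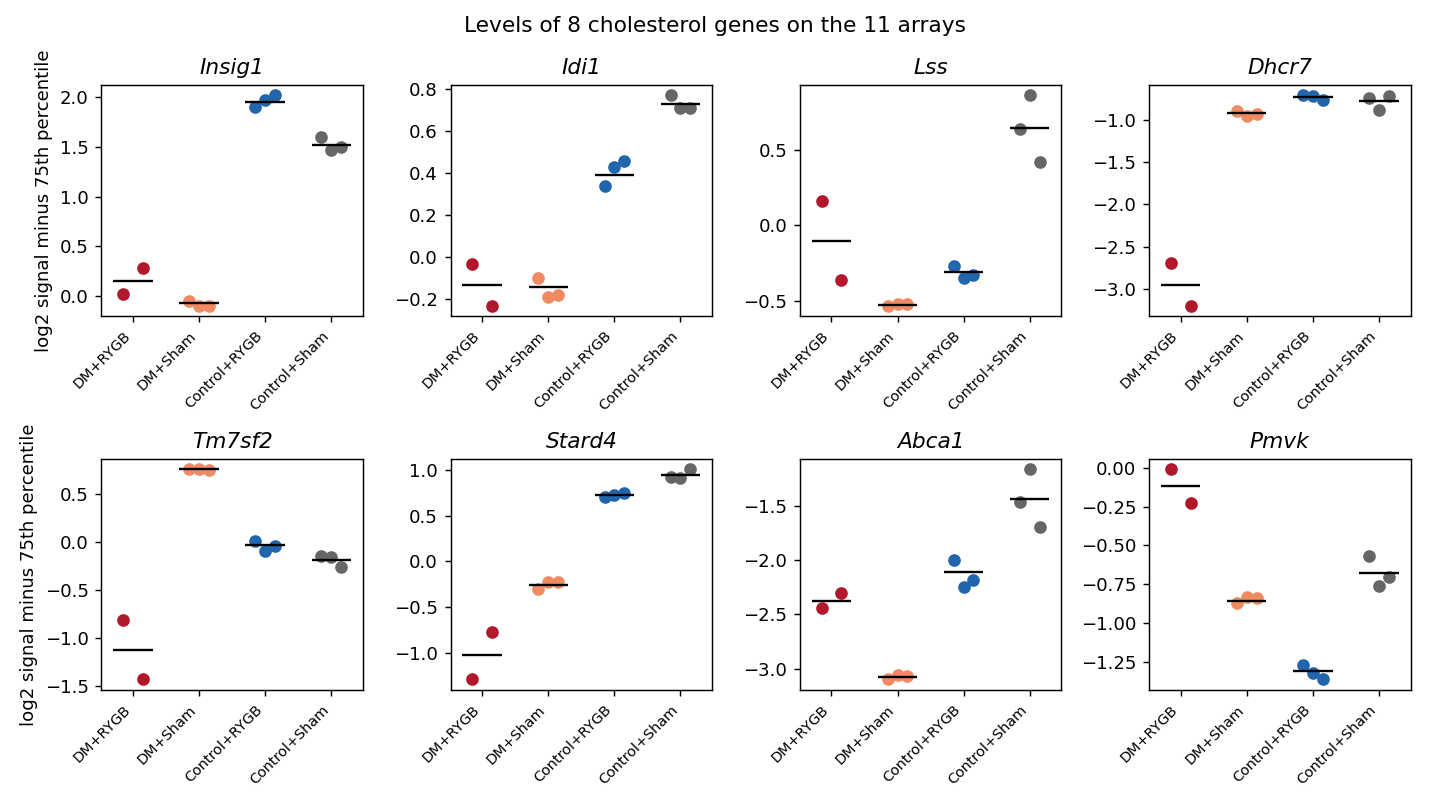
Log2 level (signal minus the 75th percentile of the array) of 8 genes on each array, 1 point per array and 1 colour per group, with the mean of the samples of the group as a line; scales differ between panels. Insig1 and Stard4 are lower on all diabetic arrays, Dhcr7 is lower on the DM+RYGB arrays alone, Tm7sf2 is highest in DM+Sham and lowest in DM+RYGB, and Pmvk is lowest in Control+RYGB.

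The second comparison, RYGB in diabetic rats, asked how these genes changed with surgery once diabetes was established. In DM+RYGB against DM+Sham cortex, 7 of the 31 genes fell, where 10.8% of all genes did, and none rose, where 10.4% of all genes did (0 of 31 at an unadjusted p under 0.05 in limma under all 3 scalings). None of the 7 early enzymes was called. The median change of the 31 genes was 0.02 beside 0.57 for all genes, and with quantile scaling -0.24 beside -0.06.

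Dhcr7, which carries out the last step to cholesterol, had levels of -2.70 and -3.20 in DM+RYGB, -0.90, -0.95 and -0.93 in DM+Sham, -0.71, -0.72 and -0.76 in Control+RYGB, and -0.74, -0.88 and -0.72 in Control+Sham. The 2 DM+RYGB arrays lay below the other 9, which had levels between -0.95 and -0.71. Dhcr7 fell by 2.03 ± 0.17 against DM+Sham, a 4.08-fold lower signal (adjusted p = 6e-04). Tm7sf2 had levels of -0.81 and -1.43 in DM+RYGB and 0.76, 0.76 and 0.75 in DM+Sham, and fell by 1.88 ± 0.20 (adjusted p = 0.001). It had risen in DM+Sham against Control+Sham, a comparison that shares the DM+Sham arrays. Sc5d and Msmo1 fell by 0.67 ± 0.16 and 0.44 ± 0.13.

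Stard4 fell by 0.77 ± 0.17 (adjusted p = 0.011), with -1.29 and -0.77 in DM+RYGB below the DM+Sham arrays, but its second probe differed by 0.24, so the probes disagreed here. Both receptor genes fell. Nr1h2 had levels of -1.36 and -1.27 in DM+RYGB and -0.67, -0.66 and -0.68 in DM+Sham (fell by 0.65 ± 0.14, adjusted p = 0.01). Nr1h3 had 2.0 and 1.36 in DM+RYGB and 2.63, 2.62 and 2.62 in DM+Sham (fell by 0.94 ± 0.24, adjusted p = 0.018). For these genes the groups did not overlap, and DM+RYGB 2 was the lower of its pair for Nr1h3. Insig1 changed by 0.23 ± 0.13 (adjusted p = 0.17), and Abca1 by 0.71 ± 0.19, a value that did not pass under all 3 scalings and lay beside an all-gene median of 0.57. Soat1 changed by -0.30 ± 0.18 and Mylip by 0.08 ± 0.14.

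Of the 57 other sterol genes, 9 fell and 1 rose in DM+RYGB against DM+Sham, beside 10.8% and 10.4% of all genes. Lipa, the lysosomal lipase that frees cholesterol from its esters, fell by 1.07 ± 0.10 (adjusted p = 0.00082), and Erlin1, which binds sterol-sensing proteins in the endoplasmic reticulum, by 1.38 ± 0.14 (adjusted p = 0.00085). Pgrmc1, a haem protein that binds the cytochrome P450 of Cyp51, fell by 1.58 ± 0.19, and Stard3nl, a late endosomal contact protein, rose by 1.16 ± 0.14. In the isoprenoid branch, which leaves the pathway at farnesyl diphosphate, 3 of 8 measured genes fell, beside 10.8% of all genes.

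Cell type markers moved with this comparison. Proximal tubule markers fell, 5 of 10, with changes of -4.13 for Slc5a12 and -2.35 for Cubn. The other 5 were not called, with changes from -0.39 for Slc13a3 to 1.0 for Miox, and the summed levels of the list overlapped between the groups. Of the 7 hepatocyte markers 2 fell and 2 rose, 2 of the 4 distal convoluted tubule markers rose, 2 of the 6 podocyte markers rose, and the podocyte sum was 25.1 to 35.3 in DM+RYGB and 12.6 to 13.2 in DM+Sham. The part of these markers in the falls of Dhcr7 and Tm7sf2 was not tested. Heart muscle markers were high on DM+RYGB 2 alone, and without that array Dhcr7 differed by -1.78, Tm7sf2 by -1.57, Stard4 by -1.03 and Nr1h2 by -0.69, all still called, whereas Nr1h3 differed by -0.63 and was not. On the scan day that held 1 array of each group, Dhcr7 differed by -1.77 and Tm7sf2 by -1.56. The count of genes that fell was 3 with normexp correction and 2 with scan day as a block, beside 3.76% and 2.07% of all genes. It also moved when a sample was left out. In the block the averaged sample of DM+Sham 2 and 3 took the day of array 2. No day then joined sham and RYGB samples, so the block could not adjust this comparison for scan day.

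The third comparison, RYGB in control rats, covered the effect of surgery without diabetes. In Control+RYGB against Control+Sham cortex, 8 of the 31 genes fell, where 5.4% of all genes did, and none rose, where 6.89% of all genes did (0 of 31 at an unadjusted p under 0.05 in limma under all 3 scalings). The 8 included 6 of the 18 enzymes of synthesis and both efflux pumps. No gene of sterol sensing was called.

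Pmvk, a kinase of the mevalonate pathway, had levels of -1.27, -1.32 and -1.36 in Control+RYGB and -0.57, -0.76 and -0.70 in Control+Sham, and fell by 0.63 ± 0.12 (adjusted p = 0.014). Fdps had 1.16, 1.21 and 1.23 in Control+RYGB and 1.65, 1.53 and 1.62 in Control+Sham, and fell by 0.41 ± 0.10 (adjusted p = 0.027). Both sets of arrays were separate. Sqle had 0.36, 0.59 and 0.53 in Control+RYGB and 1.23, 1.13 and 1.17 in Control+Sham (fell by 0.72 ± 0.13, adjusted p = 0.013). Lss had -0.27, -0.35 and -0.33 in Control+RYGB and 0.64, 0.86 and 0.42 in Control+Sham (fell by 0.95 ± 0.19, adjusted p = 0.017). Cyp51 and Hsd17b7, a ketoreductase of the sterol ring, fell by 0.58 and 0.43, and for these enzymes too every Control+RYGB array lay below every Control+Sham array.

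Abca1 had levels of -2.0, -2.25 and -2.18 in Control+RYGB and fell by 0.67 ± 0.17 against Control+Sham (adjusted p = 0.031). Abcg1 had 0.03, 0.12 and 0.11 in Control+RYGB and 0.49, 0.40 and 0.43 in Control+Sham, and fell by 0.37 ± 0.10 (adjusted p = 0.036). Neither pump's arrays overlapped between the groups. Insig1 was higher on every Control+RYGB array, but its change of 0.43 ± 0.12 did not pass under all 3 scalings, and the same held for Soat1 at 0.66 ± 0.16. Mylip changed by 0.21 ± 0.12. Of the 57 other sterol genes, 4 fell and 1 rose, beside 5.4% and 6.89% of all genes. Abcg4 fell by 1.37 ± 0.16, Ch25h, which makes an oxidised sterol, by 0.80 ± 0.16 and Sort1, a sorting receptor, by 0.41 ± 0.10. Apoc1 rose by 0.92 ± 0.13.

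This comparison and that of DM+Sham share the Control+Sham arrays, in which the urothelium markers were high, and 6 of the 7 markers fell here as well. Hepatocyte markers were higher, with 4 of 7 called and sums of 13.96 to 16.0 in Control+RYGB and 3.92 to 4.65 in Control+Sham, but Cyp2c11 of the same list fell by 2.82. The part of these markers in the result was not tested. No scan day held both groups, and the Control+RYGB arrays were the only ones in their position on the slide. Group, day and position thus cannot be told apart. No day joined sham and RYGB samples in the block for scan day, so it could not adjust this comparison. With that block or normexp correction no gene was called lower in limma (1 and 3 of 31 at an unadjusted p under 0.05), beside 0% and 0.109% of all genes. None was called in limma without Control+Sham 1 (9 of 31 at an unadjusted p under 0.05) and 2 without Control+Sham 2, beside 1.93% and 2.33% of all genes. Calls were also lost without Control+RYGB 1 and without Control+RYGB 2 and 3.

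**Figure D3:**
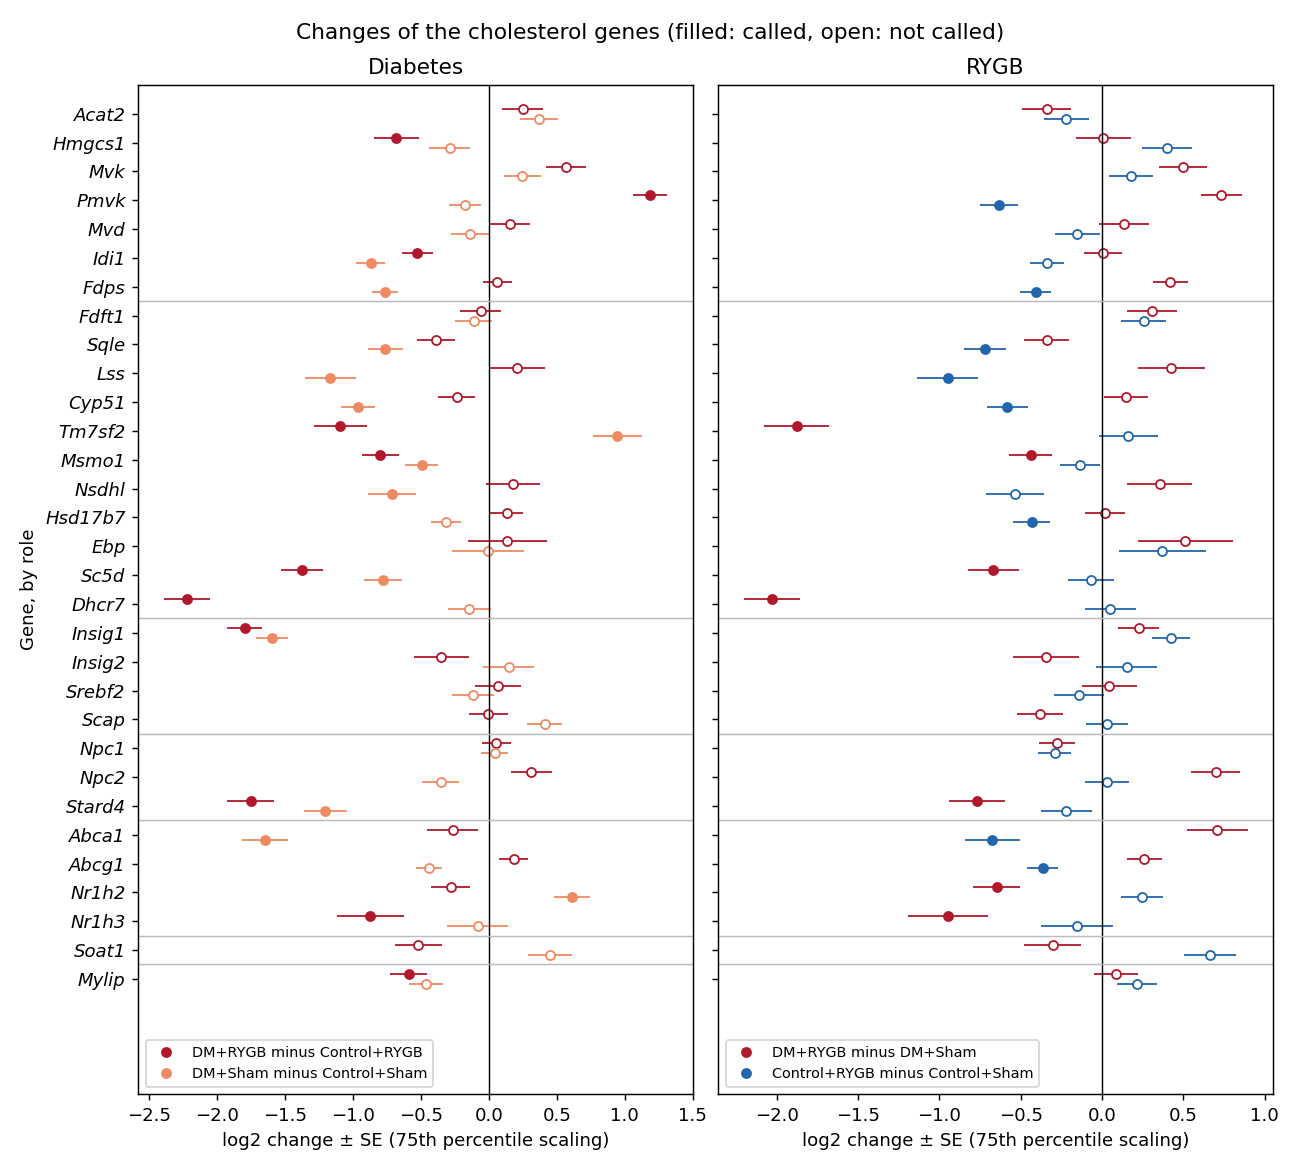
Log2 change with its SE for each of the 31 genes, with diabetes on the left (DM+RYGB minus Control+RYGB and DM+Sham minus Control+Sham) and RYGB on the right (DM+RYGB minus DM+Sham and Control+RYGB minus Control+Sham); filled points were called under all 3 scalings and open points were not. Insig1, Stard4 and Sc5d have filled points left of 0 for diabetes under both kinds of surgery, and no gene has filled points for RYGB in both diabetic and control rats.

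After surgery, diabetes was again marked by low Insig1 and Stard4. In DM+RYGB against Control+RYGB cortex, 10 of the 31 genes fell, where 9.68% of all genes did, and 1 rose, where 7.42% of all genes did. Dhcr7 fell by 2.22 ± 0.17 (adjusted p = 0.00044), Sc5d by 1.38 ± 0.16 (adjusted p = 0.0015), Insig1 by 1.80 ± 0.13 (adjusted p = 0.00034) and Stard4 by 1.75 ± 0.17 (adjusted p = 0.00097). Sc5d had levels of -0.97 and -1.41 in DM+RYGB, -0.53, -0.51 and -0.51 in DM+Sham, 0.16, 0.21 and 0.23 in Control+RYGB, and 0.33, 0.25 and 0.20 in Control+Sham. All its diabetic arrays lay below all its control arrays, and the DM+RYGB arrays were the lowest.

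Pmvk had levels of -0.01 and -0.23 in DM+RYGB against -1.27, -1.32 and -1.36 in Control+RYGB and rose by 1.19 ± 0.13 (adjusted p = 0.0012), with no overlap. Idi1 had -0.03 and -0.23 in DM+RYGB and 0.34, 0.43 and 0.46 in Control+RYGB, and fell by 0.53 ± 0.12 (adjusted p = 0.015). Nr1h3 fell by 0.87 ± 0.24 (adjusted p = 0.036) and was no longer called without DM+RYGB 2, where it differed by -0.55. Mylip had 1.3 and 1.54 in DM+RYGB and 2.10, 1.90 and 1.96 in Control+RYGB and fell by 0.59 ± 0.14 (adjusted p = 0.019), but its second probe differed by 0.47 the other way. Tm7sf2, Msmo1 and Hmgcs1 (the synthase before mevalonate) fell by 1.09, 0.80 and 0.68. Hmgcs1 too was no longer called without DM+RYGB 2, where it differed by -0.54, nor without Control+Sham 1, Control+RYGB 1, or Control+RYGB 2 and 3. Soat1 changed by -0.52 ± 0.18 and was not called.

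The comparisons of diabetes with and without RYGB share no samples. Idi1, Msmo1, Sc5d, Insig1 and Stard4 fell in both, which is 50% of those that fell after RYGB and 45.5% of those that fell after sham surgery. Over all genes the shared falls were 19.9% and 30.1% of the same lists. The Msmo1 call after sham surgery was kept under 12 of 26 alternatives. For RYGB in diabetic and in control rats, which share no samples either, none of the 7 and 8 genes that fell was shared, where 9.84% and 19.7% of all genes that fell were. Single calls missed in one comparison do not show that a gene did not change there. Of the 57 other sterol genes, 10 fell and 2 rose in DM+RYGB against Control+RYGB, beside 9.68% and 7.42% of all genes. Among them Pgrmc1 fell by 2.47 ± 0.19, Apoc1 by 1.52 ± 0.15 and Erlin1 by 1.15 ± 0.14. Lrp1, an endocytic lipoprotein receptor, rose by 0.93 ± 0.11.

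In the cell type lists, 7 of the 10 proximal tubule markers fell and 4 of the 6 podocyte markers rose in DM+RYGB against Control+RYGB. In the same comparison 5 of 7 hepatocyte markers fell, and 3 of 4 distal convoluted tubule, 3 of 5 collecting duct, 3 of 6 intercalated cell and 2 of 7 urothelium markers rose. The part of these markers in the result was not tested. Within the 2 scan days that held both groups, Insig1 differed by -1.88 and -1.71, Stard4 by -2.0 and -1.51, Dhcr7 by -1.99 and -2.46 and Pmvk by 1.27 and 1.11. The Control+RYGB arrays were alone in their slide position, so group and position cannot be told apart in this comparison either. With scan day as a block 4 genes fell, beside 3.96% of all genes. None was called higher there in limma (1 at an unadjusted p under 0.05), beside 2.23% of all genes. With normexp correction 6 fell, beside 4.05%, and calls were also lost without Control+RYGB 1 and without Control+RYGB 2 and 3. Without Control+RYGB 2 and 3 the rise of Pmvk was no longer called.

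Whether RYGB acted differently in diabetic and control rats was tested with the interaction, the change with RYGB in diabetic rats minus that in control rats. It was lower for 4 of the 31 genes, where 8.04% of all genes were called, and higher for 3, where 6.48% were. Dhcr7 (-2.08 ± 0.23, adjusted p = 0.0025) and Tm7sf2 (-2.04 ± 0.27, adjusted p = 0.0039) had the largest negative values. Their changes with RYGB were -2.03 and -1.88 in diabetic rats and 0.05 and 0.16 in control rats. Nr1h2 was at -0.89 ± 0.19 (adjusted p = 0.02). Soat1 was at -0.97 ± 0.24 (adjusted p = 0.03), with levels of -4.19 and -4.60 in DM+RYGB, -4.09, -4.08 and -4.10 in DM+Sham, -3.91, -3.85 and -3.83 in Control+RYGB, and -4.50, -4.73 and -4.39 in Control+Sham. With normexp correction its value turned to 0.93 and was not called. Its DM+RYGB arrays lay within the range of Control+Sham or just above it, and those of the other groups were higher.

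Pmvk (1.37 ± 0.17, adjusted p = 0.0034), Lss (1.38 ± 0.28, adjusted p = 0.017) and Abca1 (1.38 ± 0.25, adjusted p = 0.011) had positive values. With RYGB they changed by -0.63, -0.95 and -0.67 in control rats, where each was called. In diabetic rats they changed by 0.73, 0.43 and 0.71, and none was called. With median scaling the changes in diabetic rats were 0.13 for Pmvk, -0.18 for Lss and 0.10 for Abca1. The direction of Lss in diabetic rats thus depended on the scaling. The median change of all genes was 0.29 in control rats and 0.57 in diabetic rats. Lss had levels of 0.16 and -0.36 on the DM+RYGB arrays, which were farther apart than those of DM+Sham or Control+RYGB. Of the 57 other sterol genes, 5 were lower and 1 higher, beside 8.04% and 6.48% of all genes. Pgrmc1 was at -2.44 ± 0.26, Lipa at -1.30 ± 0.14, Erlin1 at -1.67 ± 0.18 and Abcg4 at 1.61 ± 0.23. In the same test 5 of 10 proximal tubule markers were lower and 6 of 7 urothelium markers higher. Of the hepatocyte markers 2 were lower and 1 higher, and 2 podocyte, 2 collecting duct, 2 intercalated cell and 1 distal convoluted tubule markers were higher. Their part in it was not tested. With normexp correction or scan day as a block none of the 31 genes was called in limma. Over all genes 1.56% and 0.124% were called lower there, and 0.419% and 0.163% higher. At an unadjusted p under 0.05 in limma, 5 and 4 of the 31 genes were lower and 0 and 3 higher. Dhcr7 and Tm7sf2 kept their calls whichever sample was left out, Pmvk lost its call without Control+RYGB 2 and 3, Lss without Control+Sham 1 or 2, DM+Sham 1, DM+Sham 2 and 3, Control+RYGB 1, Control+RYGB 2 and 3 or DM+RYGB 1, and Abca1 without any of these or DM+RYGB 2. Nr1h2 and Soat1 lost theirs without Control+Sham 1, DM+Sham 1, DM+Sham 2 and 3, Control+RYGB 1 or Control+RYGB 2 and 3, and Soat1 also without Control+Sham 2.

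In DM+RYGB against Control+Sham cortex, which joins the effects of diabetes and surgery, 14 of the 31 genes fell, where 11.8% of all genes did, and none rose, where 11.9% of all genes did (0 of 31 at an unadjusted p under 0.05 in limma under all 3 scalings). The median change of the 31 genes was -0.30 beside 0.60 for all genes, and with quantile scaling -0.62 beside -0.01. Among the enzymes 9 of 18 fell, with Idi1 lower by 0.86 ± 0.11 and Fdps by 0.35 ± 0.10 among the early ones, and Dhcr7 by 2.17 ± 0.16 and Sc5d by 1.45 ± 0.14 among the later ones. Insig1 fell by 1.37 ± 0.12 (adjusted p = 0.00037), and Stard4 by 1.97 ± 0.16 (adjusted p = 0.00032), a 3.93-fold lower signal. Abca1 had levels of -2.44 and -2.30 in DM+RYGB, between those of DM+Sham and Control+RYGB, and fell by 0.94 ± 0.17 (adjusted p = 0.004). Nr1h3 fell by 1.03 ± 0.22 and Mylip by 0.38 ± 0.12 (adjusted p = 0.036), while the second Mylip probe differed by 0.58. Soat1 changed by 0.15 ± 0.16.

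Of the 57 other sterol genes, 15 fell and 2 rose, beside 11.8% and 11.9% of all genes. Pgrmc1 fell by 1.60 ± 0.17 and Erlin1 by 0.86 ± 0.12, while Abca7, a lipid pump related to Abca1, rose by 1.78 ± 0.21 and Gramd1a, which carries cholesterol from the plasma membrane, by 1.43 ± 0.18. Arrays of DM+RYGB and Control+Sham shared no scan day. The block for scan day could not adjust this comparison, because no day in it joined sham and RYGB samples. Under that block none of the 31 genes was called in limma (8 lower at an unadjusted p under 0.05). Of all genes 0% were called lower there and 0% higher. Without DM+RYGB 2, the count was again 14, but Fdps (adjusted p = 0.056, the largest of the 3 scalings in limma) and Lss (0.057) were no longer called, while Insig2 (0.0053) and Npc1 (0.046) were. In the cell type lists, 5 proximal tubule, 5 urothelium, 3 hepatocyte and 2 fibroblast and smooth muscle markers fell, and 5 podocyte, 3 distal convoluted tubule, 3 collecting duct and 2 intercalated cell markers rose, and their part in the result was not tested.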

How the data were processed

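Cy3-labelled RNA from rat renal cortex was hybridised to Agilent Rat 4 x 44K arrays, 1 array for each of the 11 samples. The authors, per the file headers, extracted the processed signal intensity using Feature Extraction 11.0.1.1 (Agilent), with background subtracted and arrays not scaled to each other. A second deposited table holds log2 values whose column medians were all 7.07, and served as an alternative. It correlated with the scanner values at 0.98869 to 0.9969 per array. Its tools were not given in the sources used here.

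Of 44254 spots, 1377 controls were left out, and spots of a probe were averaged to 30367 probes, of which 18005 had a gene symbol here. The 75th percentile of an array was subtracted from its log2 signals, and the brightest probe of each gene was kept if it stood well above background on 2 or more arrays. The array-pair check and the averaging of 2 array pairs left 9 samples (3 Control+Sham, 2 in each other group). The fit of the 4 groups used limma 3.58.1 (lmFit and eBayes, 5 residual degrees of freedom, R 4.3.3). The fit was tested on simulated data: for diabetes in sham rats, 29% of genes changed by 1 log2 unit and 65% of those changed by 2 were recovered. The genes, lists, tests and the demand for 3 scalings were chosen with earlier results of these data known. Per role and comparison, the 2 called genes with the smallest p were described in full, with genes alone in their role or called in the interaction, and up to 4 other sterol genes per comparison. Alternatives were other scalings, normexp background correction (offset 50), the deposited table, probe filters and summaries, 11 separate arrays, replicate, slide and scan-day blocks, a 2-fold threshold, fits on only the groups compared, and each sample left out in turn. Promoter sequences are from RefSeq (GRCr8).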

Additional observations from a re-analysis of the deposited data

Results flagged for a closer look

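Each of these genes changed differently with RYGB in diabetic and in control rats by the interaction test in limma. The change in diabetic rats minus that in control rats was 1.366 for Pmvk, 1.376 for Lss and 1.382 for Abca1. It was -2.038 for Tm7sf2, -2.081 for Dhcr7, -0.8938 for Nr1h2 and -0.9685 for Soat1, which turned to 0.93 with normexp correction. In diabetic rats, DM+RYGB minus DM+Sham was 0.73 for Pmvk, 0.43 for Lss and 0.71 for Abca1. The same difference was -1.88 for Tm7sf2, -2.03 for Dhcr7, -0.65 for Nr1h2 and -0.30 for Soat1. For Lss it turned to -0.18 with median scaling. In control rats, Control+RYGB minus Control+Sham was -0.63 for Pmvk, -0.95 for Lss, -0.67 for Abca1, 0.16 for Tm7sf2, 0.05 for Dhcr7, 0.25 for Nr1h2 and 0.66 for Soat1.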

How the results depend on the processing

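Counts below are genes of the 31, lower and then higher, and those of the main analysis were 11 and 2 for diabetes in sham rats, 7 and 0 for RYGB in diabetic rats, 8 and 0 for RYGB in control rats, 10 and 1 for diabetes in RYGB rats, 14 and 0 for DM+RYGB against Control+Sham, and 4 and 3 for the interaction. With normexp correction they were 0 and 0 for diabetes in sham rats, 3 lower for RYGB in diabetic rats, 0 lower for RYGB in control rats, 6 and 0 for diabetes in RYGB rats, and 0 and 0 for the interaction. With scan day as a block they were 0 and 0, 2 lower, 0 lower, 4 and 0, 0 lower, and 0 and 0, in the same order of comparisons. With the median alone 19 were lower for RYGB in diabetic rats, beside 28.8% of all genes. There were 13 for RYGB in control rats (14%) and 27 for DM+RYGB against Control+Sham (31.5%). With quantile scaling alone 12 were lower and 2 higher for RYGB in diabetic rats, beside 23% and 14.4% of all genes. It gave 1 higher for DM+RYGB against Control+Sham (17.2%) and 5 higher for the interaction (9.28%). With the 75th percentile alone 5 were higher for RYGB in diabetic rats, beside 42.1% of all genes, and 2 for RYGB in control rats (21.6%). It gave 2 higher for diabetes in RYGB rats (20.1%), 2 for DM+RYGB against Control+Sham (48.7%) and 6 for the interaction (13.5%). The deposited table gave 13 lower and 2 higher for RYGB in diabetic rats, beside 23.5% and 15% of all genes. It gave 1 higher for DM+RYGB against Control+Sham (17.8%) and 5 higher for the interaction (9.77%). With 11 separate arrays 4 were higher for diabetes in sham rats, beside 13.8% of all genes. There 11 were lower for RYGB in diabetic rats (14.2%) and 8 lower for the interaction (13.4%). With only the groups compared 1 was higher for diabetes in sham rats (6.01% of all genes) and 2 lower for RYGB in diabetic rats (3.12%). For diabetes in RYGB rats 4 were lower (2.74%) and 0 higher (1.5%). A 2-fold threshold left 4 and 0 for diabetes in sham rats, 2 lower for RYGB in diabetic rats, 0 lower for RYGB in control rats, 5 and 0 for diabetes in RYGB rats, 6 lower for DM+RYGB against Control+Sham and 2 lower for the interaction, since fewer genes pass it by construction. The shares of all genes at this threshold were 3.34% and 1.88%, 3.3%, 1.63%, 4.25% and 3.47%, 4.11%, and 4.81%, in that order. Correlations between samples of the same replicate number ran from -0.362 to 0.452. In groups of 2 samples the deviations from the mean mirror each other, so this check could not tell whether the numbers pair the samples. With the replicate block 7 were lower and 0 higher for diabetes in sham rats, beside 4.53% and 3.84% of all genes. It gave 5 lower for RYGB in control rats (4.47%) and moved no other count by over 1.5 times.

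Leaving out 1 sample gave 3 to 15 lower and 0 to 2 higher for diabetes in sham rats, 2 to 11 lower for RYGB in diabetic rats, 0 to 11 lower for RYGB in control rats, 4 to 11 lower and 0 to 1 higher for diabetes in RYGB rats, 12 to 14 lower for DM+RYGB against Control+Sham, and 2 to 6 lower and 0 to 3 higher for the interaction. A sample left alone in its group was assumed to vary like the others. The share of all genes moved too. Without Control+Sham 1, 2 or 3 in turn, 7 to 10 genes fell for diabetes in sham rats, beside 2.93% to 5.19% of all genes. For RYGB in diabetic rats 6 to 7 fell (8.92% to 10.4%), and for RYGB in control rats 0 to 7 (1.93% to 4.83%). For diabetes in RYGB rats 7 to 8 fell (7.62% to 9.05%), and for DM+RYGB against Control+Sham 12 to 13 (8.99% to 11%). The interaction was lower for 2 to 4 (4.88% to 7.36%).

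Of 4805 values of single genes under the alternatives, 200 had the opposite sign to the main analysis, and 183 of these were called in neither. The other 17 were called in the main analysis or in the alternative. With median scaling, RYGB in diabetic rats gave -0.60 for Hmgcs1, -0.47 for Mvd, -0.60 for Idi1, -0.59 for Hsd17b7, -0.56 for Srebf2 and -0.52 for Mylip. DM+RYGB against Control+Sham gave -0.65 for Acat2, -0.68 for Mvd, -0.48 for Fdft1, -0.65 for Scap and -0.53 for Soat1 with median scaling, -0.40 for Mvd and -0.73 for Soat1 with quantile scaling, -0.39 for Mvd and -0.69 for Soat1 in the deposited table, and 0.10 for Mylip as the mean of its probes. The interaction of Soat1 was 0.93 with normexp correction. Of these only Mylip and the interaction of Soat1 had been called. The cause of these shifts was not tested. The number of arrays limits the precision, and all 31 genes were above background on all arrays.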
